A study of Mus musculus with 12 samples.

Results

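The genes described here encode the enzymes that write and erase methyl and acetyl groups on histones. They were chosen by name, as single-gene symbols beginning with Kmt, Kdm, Setd, Hdac, Ehmt, Ezh, Sirt or Kat with a digit, leaving out Kdm5c, Kdm5d and Kdm6a. This gave 62 of the 18820 genes measured, each read from its brightest probe set: 22 methyltransferases and related SET-domain proteins, 6 acetyltransferases, 15 demethylases, 11 zinc-dependent histone deacetylases (HDACs), 7 sirtuins, and Ezhip, which the name rule brings in although it is an inhibitor of the Polycomb methyltransferase and no enzyme. The name rule uses no measured values, but it was set with earlier results of these data known. Within a gene the probe set was chosen by its mean brightness over all 12 samples.

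The tissue was medial prefrontal cortex from C57BL/6N mice aged 12 weeks that had undergone behavioural and cognitive tests. On gestation day 17 their mothers were injected intravenously with 5 mg/kg of poly(I:C), an artificial RNA duplex used to mimic a viral infection, or with saline. There were 6 control and 6 poly(I:C) offspring with 1 Affymetrix Mouse Gene 1.1 ST array each, and the comparison asks how expression in the adult cortex differs after prenatal immune activation. The titles call the samples biological replicates, but no source used here gives litter, sex or array strip, so littermates may be among them and the p-values cover only the variation between these 12 animals.

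Histone marks are set by opposing enzymes. Methyltransferases place methyl groups on particular lysines, where methylation of H3K4 and H3K36 goes with transcribed genes and methylation of H3K9 and H3K27 with silent ones, and demethylases of the LSD and Jumonji families take them off. Acetyltransferases open chromatin by acetylating histone tails, and HDACs and nuclear sirtuins reverse this, the class I HDACs usually inside large corepressor complexes. In the brain these enzymes are known for roles in neuronal maturation and memory, and loss of several of them causes neurodevelopmental disorders.

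Prenatal poly(I:C) left this family with 1 gene past the threshold. Sirt4, a mitochondrial sirtuin that acts on metabolic enzymes rather than on histones, rose 1.19-fold (log2 difference 0.25 ± 0.05, moderated SE, n = 6 each), and the other 61 genes did not pass. The rate of 1 in 62, or 1.61%, was not above the background: in the same limma fit 653 of 23099 probe sets, 2.83%, passed at an adjusted p under 0.05, 2.02% higher and 0.805% lower. Taking 1 brightest probe set for each of the 18820 genes, as for the enzymes, 2.74% passed, 1.96% higher and 0.786% lower. No enzyme gene reached a 1.2-fold difference, a size reached by 200 of the 23099 probe sets. For 59 of the 62 genes the 95% interval of the difference lay wholly within 1.2-fold in both directions, and the 3 exceptions were Sirt4, Sirt7 and Hdac7. The share was alike over the whole table, at 21990 of the 23099 probe sets and 17973 of the 18820 genes. The differences ran from -0.078 for Hdac5 to 0.25 for Sirt4 on the log2 scale.

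**Figure D1:**
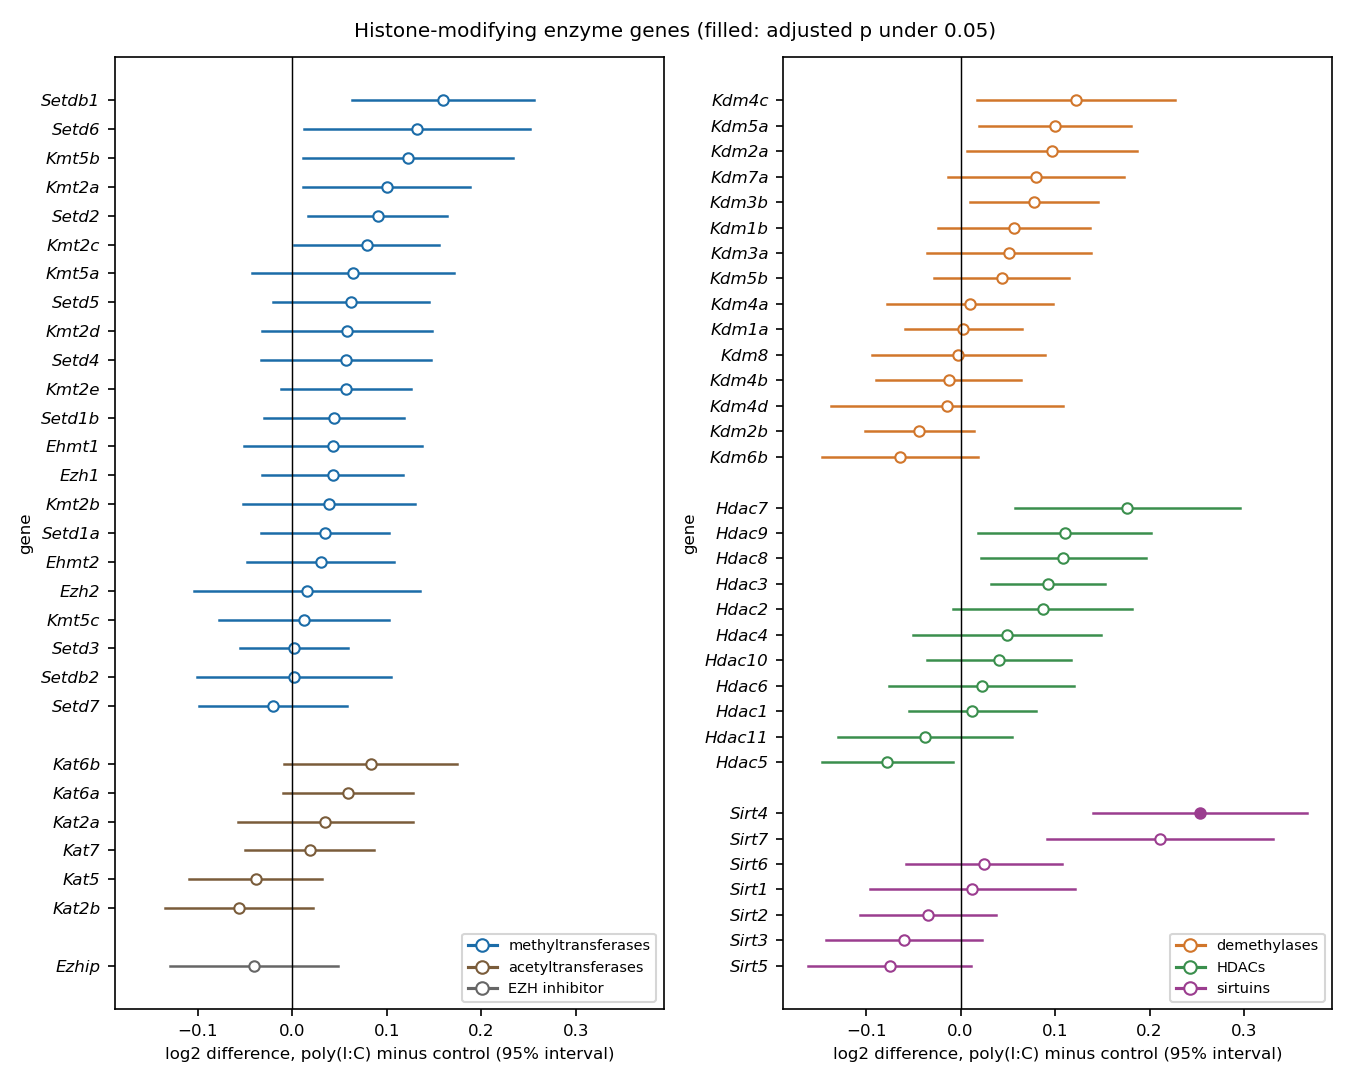
Log2 difference, poly(I:C) minus control, with its 95% interval for each of the 62 genes, ordered within enzyme group; the filled point passed an adjusted p under 0.05. Sirt4 at 0.25 is the filled point, and 21 of the 22 methyltransferase points lie right of 0.

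Small differences leaned upward. The mean was higher after poly(I:C) in 48 of the 62 genes (77.4%), against 52.0% of all probe sets tested and 51.7% of all genes, and the median difference was 0.043 against 0.0030. At an unadjusted p under 0.05, 16 genes were higher (25.8%) and 1 lower (1.61%), or 27.4% in all. The background was 11.7% higher and 7.33% lower over probe sets, 19.1% in all, and 11.5% and 7.33% over genes, 18.8% in all. Much of the table's brighter part shared this lean. When the probe sets brighter than the median one were fitted alone, 65.7% had a higher mean with a median difference of 0.026, and of the 54 enzyme genes among them 44 (81.5%) had a higher mean with a median of 0.044. Of these 54 genes 4 passed, 7.41%, against 7.52% of all the brighter probe sets, and at an unadjusted p under 0.05 27.8% were higher and 1.85% lower, against 19.6% and 5.03%. The lean also depended on scaling. After quantile normalization 37 of the 62 genes had a higher mean and the median was 0.0092, against -0.0098 for all probe sets, while centring each array on its median gave 45 genes and 0.036.

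**Figure D2:**
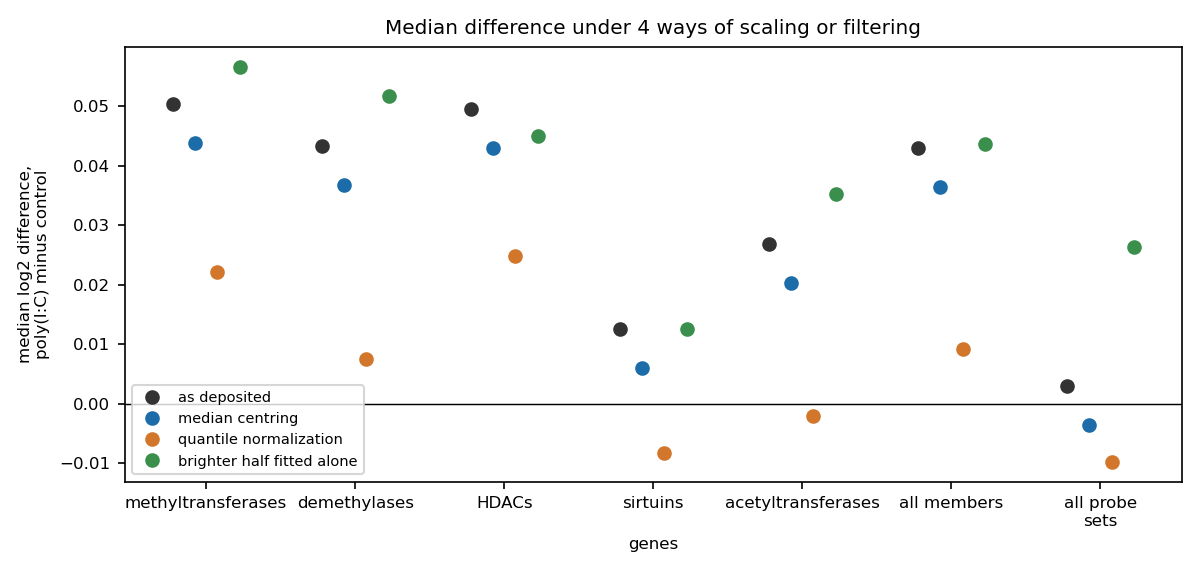
Median log2 difference, poly(I:C) minus control, of each enzyme group, of all members and of all probe sets, under 4 ways of scaling or filtering. Quantile normalization gives the lowest value in every column, with sirtuins (-0.0083), acetyltransferases (-0.0021) and all probe sets (-0.0098) below 0.

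The per-animal medians of the enzyme genes overlapped between groups. Taken as deviations from each gene's control mean, they ran from -0.053 to 0.048 in controls and from 0.017 to 0.069 after poly(I:C). Control 3 was the lowest animal, and control 5, at 0.048, lay above 4 of the 6 poly(I:C) animals. The within-group SD of the genes lay between 0.025 (Setd3) and 0.12 (Kdm4d), beside a median difference of 0.043.

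**Figure D3:**
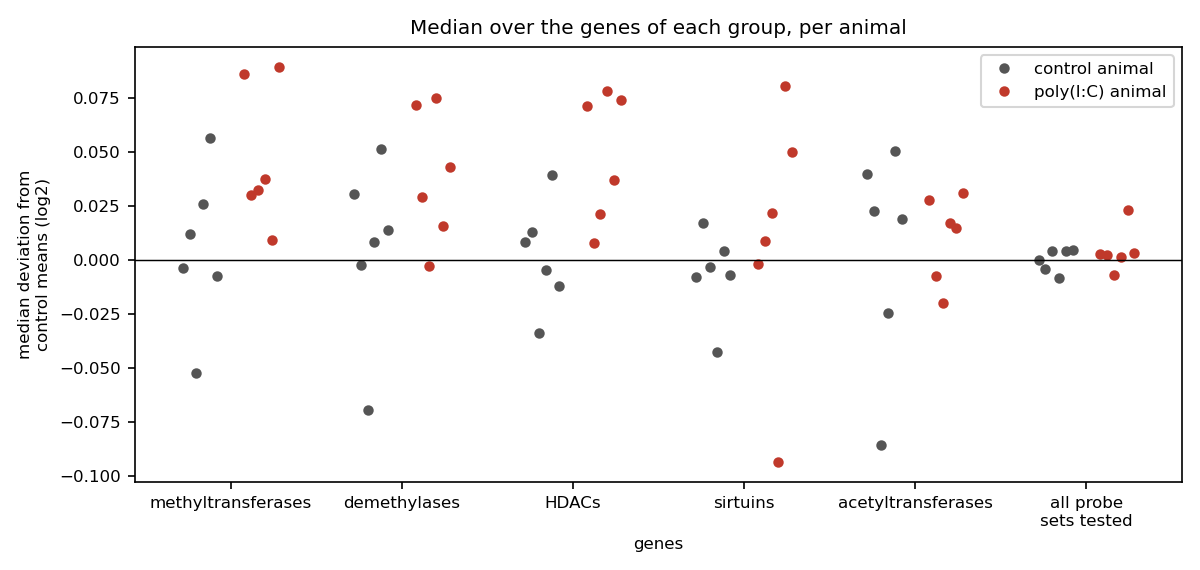
Median deviation from the control means over the genes of each enzyme group, 1 point per animal, with all probe sets at the right. Groups overlap in every column; control 3 is the lowest control for methyltransferases, demethylases, HDACs and acetyltransferases, and poly(I:C) animal 4 is lowest for sirtuins at -0.093.

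Among the methyltransferases, 21 of 22 genes had a higher mean after poly(I:C) and none passed. At an unadjusted p under 0.05 (limma) 6 were higher (27.3%) and none lower, against 11.7% and 7.33% of all probe sets. Among the probe sets brighter than the median one, fitted alone, these shares were 19.6% and 5.03%, and 65.7% had a higher mean. After quantile normalization the median of the methyltransferases was 0.022 instead of 0.050. The means of Ehmt2, Ezh2 and Setd3 then turned lower, as those of Setd3 and Setdb2 did after median centring. The lowest p belonged to Setdb1, which trimethylates H3K9 and is known for silencing endogenous retroviruses. Its log2 expression ran from 6.80 through a median of 6.95 to 7.07 in controls and from 7.03 through 7.08 to 7.21 after poly(I:C), a difference of 0.16 ± 0.05 (adjusted p = 0.067). The groups overlapped at their edges, with all 6 poly(I:C) animals above the control mean. Setdb1 passed without control 5 (0.18, adjusted p = 0.039) and when the brighter probe sets were fitted alone (adjusted p = 0.046). Its relatives of the H3K9 class lay closer to 0: Ehmt1 at 0.043 and Ehmt2 at 0.030, the paired enzymes of H3K9 dimethylation, and Setdb2 at 0.0018.

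The H3K4 class comprises the KMT2 proteins, SETD1A and SETD1B, most of them enzymes of the COMPASS complexes, and the monomethylase SETD7. Of its 8 genes 7 had a higher mean, with a class median of 0.050 and none called. Kmt2a, the founding MLL gene, led the class: controls ran from 8.63 through 8.79 to 8.85 and poly(I:C) animals from 8.79 through 8.86 to 8.98, a difference of 0.10 ± 0.04 (adjusted p = 0.20). The ranges met over a narrow stretch. Kmt2c, whose product methylates enhancers, differed by 0.079, its partner in that role Kmt2d by 0.058 (-0.0054 on its dimmer probe set), Kmt2e by 0.057, Setd1b by 0.044, Kmt2b by 0.039 and Setd1a by 0.035. Setd7 was the one methyltransferase gene with a lower mean, at -0.020.

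Setd2 encodes the enzyme that trimethylates H3K36 behind elongating RNA polymerase, and it was measured by a pair of probe sets. On the brighter one controls ran from 7.60 through 7.75 to 7.79 and poly(I:C) animals from 7.76 through 7.82 to 7.86, a difference of 0.091 ± 0.035 (adjusted p = 0.16). On the dimmer one controls ran from 7.34 through 7.46 to 7.50 and poly(I:C) animals from 7.48 through 7.60 to 7.66, and the difference of 0.15 ± 0.04 passed (adjusted p = 0.046). Both put all 6 poly(I:C) animals above the control mean, and neither separated the groups. The call of the dimmer probe set was lost without any of controls 1, 2, 3 or 6 or poly(I:C) 1, 3, 4 or 6 (adjusted p from 0.058 to 0.10). The call was also lost after quantile normalization (0.10), after median centring (0.063), with the replicate number as a block (0.065), over all table rows (0.075) and without moderation (0.091). Counted over all probe sets of the family beyond the brightest, it was the only one of 9 to pass. That is 11.1%, against 2.83% of all probe sets, and 9 are too few to read as a rate.

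The Polycomb enzymes that place H3K27 methylation had small differences. Ezh1, the form that prevails in mature neurons, ran from 8.09 through 8.15 to 8.21 in controls and from 8.11 through 8.19 to 8.31 after poly(I:C), a difference of 0.043 (95% interval -0.032 to 0.12). Ezh2, the form of dividing cells, differed by 0.016 (-0.10 to 0.14), and Ezhip by -0.041, with controls from 4.09 through 4.12 to 4.27 and poly(I:C) animals from 4.03 through 4.06 to 4.23. Ezhip lay below the 25th percentile of brightness (4.34), and Setdb2 did too.

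For H4K20, Kmt5b, which di- and trimethylates this residue, ran from 6.92 through 7.10 to 7.21 in controls and from 7.12 through 7.198 to 7.30 after poly(I:C), a difference of 0.12 ± 0.05 (adjusted p = 0.21). Kmt5a, the monomethylase, differed by 0.065 and Kmt5c by 0.012. The remaining SET-domain genes act wholly or largely on other proteins, such as Setd6, which methylates the NF-kappa-B subunit RelA, and Setd3, the actin histidine methyltransferase. Setd6 had controls from 5.99 through 6.16 to 6.33 and poly(I:C) animals from 6.14 through 6.32 to 6.42, a difference of 0.13 ± 0.06 (adjusted p = 0.21) that its dimmer probe set did not share (-0.059). Setd5, a gene of intellectual disability, differed by 0.062, Setd4 by 0.057 and Setd3 by 0.0019 (-0.031 on its dimmer probe set).

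Of the 6 acetyltransferase genes 4 had a higher mean, with none at an unadjusted p under 0.05 (limma), none called and a median of 0.027 that was -0.0021 after quantile normalization, where Kat2a and Kat7 turned lower. Kat6b, a MYST enzyme that acetylates H3K23 and is mutated in syndromic intellectual disability, ran from 7.198 through 7.26 to 7.41 in controls and from 7.22 through 7.38 to 7.46 after poly(I:C), a difference of 0.083 (95% interval -0.0086 to 0.17). Its paralog Kat6a differed by 0.059 and Kat7, the main H3K14 acetyltransferase, by 0.018. Kat5, the catalytic subunit of the NuA4 complex, differed by -0.038. Of the GNAT enzymes shared by the SAGA and ATAC complexes, Kat2a differed by 0.035 and Kat2b by -0.056. Kat2b ran from 5.36 through 5.53 to 5.58 in controls and from 5.41 through 5.44 to 5.48 after poly(I:C), with all 6 poly(I:C) animals below the control mean but inside the control range.

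Of 15 demethylase genes 10 had a higher mean and none passed, and after quantile normalization Kdm1a and Kdm4a turned lower. At an unadjusted p under 0.05 (limma) 4 were higher (26.7%) and none lower, against 11.7% and 7.33% of all probe sets. Of the brighter probe sets fitted alone, 19.6% were higher and 5.03% lower at that p. Kdm5a, which removes methyl groups from H3K4, had the lowest p: controls ran from 7.00 through 7.10 to 7.13 and poly(I:C) animals from 7.10 through 7.16 to 7.28, a difference of 0.10 ± 0.04 (adjusted p = 0.16). The other 3 were Kdm4c, an H3K9 and H3K36 demethylase, at 0.12, Kdm2a, an H3K36 demethylase that binds unmethylated CpG islands, at 0.096, and Kdm3b, which acts on H3K9, at 0.078. The dimmer probe set of Kdm2a differed by -0.10 and thus in the opposite direction, but it lay below the 25th percentile of brightness. Kdm7a, a demethylase of H3K9 and H3K27 studied in brain, gave 0.080 and 0.12 on its probe sets, neither called.

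The other Jumonji genes lay on both sides of 0. Kdm3a differed by 0.052, Kdm5b by 0.043 and Kdm4a by 0.010, while Kdm8 differed by -0.0023, Kdm4b by -0.013, Kdm4d by -0.014 and Kdm2b by -0.044. Kdm6b, the H3K27 demethylase induced in inflammation and in neuronal differentiation, was the lowest at -0.064 (95% interval -0.15 to 0.018), with all 6 poly(I:C) animals below the control mean. Its dimmer probe set, which lay below the 25th percentile of brightness, did not share this (0.0069, with 3 of 6 animals above the control mean). The flavin-dependent LSD enzymes act on mono- and dimethylated H3K4. Kdm1a differed by 0.0027 (-0.059 to 0.0645). Kdm1b ran from 5.76 through 5.80 to 5.98 in controls and from 5.80 through 5.89 to 5.92 after poly(I:C), a difference of 0.057 (-0.024 to 0.14), with the poly(I:C) range inside that of the controls.

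The HDAC genes held 5 of 11 members at an unadjusted p under 0.05 in limma, and none was called. These were 4 higher (36.4%) and 1 lower (9.09%), against 11.7% and 7.33% of all probe sets. For the brighter probe sets fitted alone the shares were 19.6% and 5.03%. In class I, the nuclear deacetylases of corepressor complexes, all 4 means were higher with a median of 0.090. Hdac3, the catalytic subunit of the NCoR and SMRT complexes, ran from 9.07 through 9.08 to 9.17 in controls and from 9.15 through 9.19 to 9.23 after poly(I:C), a difference of 0.092 ± 0.028 (adjusted p = 0.086). A single control, control 5 at 9.17, lay within the poly(I:C) range, and the other controls ended at 9.09. Hdac3 passed when the brighter probe sets were fitted alone (adjusted p = 0.048). Hdac8 differed by 0.11, Hdac2, a deacetylase known to restrain memory formation in mice, by 0.087, and Hdac1 by 0.013 on one probe set and 0.0036 on the other. The Hdac1 mean was lower after quantile normalization (-0.022).

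Class IIa HDACs shuttle between cytoplasm and nucleus in response to calcium signals and repress MEF2 targets, and 3 of their 4 genes had a higher mean. Hdac7 was at 5.96 through 6.20 to 6.28 in controls and at 6.20 through 6.36 to 6.48 after poly(I:C), a difference of 0.18 ± 0.06 (adjusted p = 0.096). The lowest control, control 3, stood apart from the other controls, which began at 6.17. Hdac9 ran from 7.67 through 7.84 to 7.90 in controls and from 7.81 through 7.92 to 8.01 after poly(I:C), at a difference of 0.11 ± 0.04 (adjusted p = 0.17). Hdac5 was the one gene of the family lower at an unadjusted p under 0.05: controls ran from 7.99 through 8.06 to 8.13 and poly(I:C) animals from 7.94 through 7.99 to 8.02, a difference of -0.078 ± 0.033 (adjusted p = 0.20), with all 6 poly(I:C) animals below the control mean. Hdac4 differed by 0.049. Whether these genes differ from each other in their response was not tested.

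The tubulin deacetylase gene Hdac6 differed by 0.022, and Hdac10, a polyamine deacetylase, by 0.040, with controls from 5.77 through 5.82 to 5.91 and poly(I:C) animals from 5.78 through 5.86 to 5.97. Hdac11, the sole class IV enzyme, ran from 8.29 through 8.38 to 8.50 in controls and from 8.23 through 8.37 to 8.44 after poly(I:C), a difference of -0.038 (95% interval -0.13 to 0.054).

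**Figure D4:**
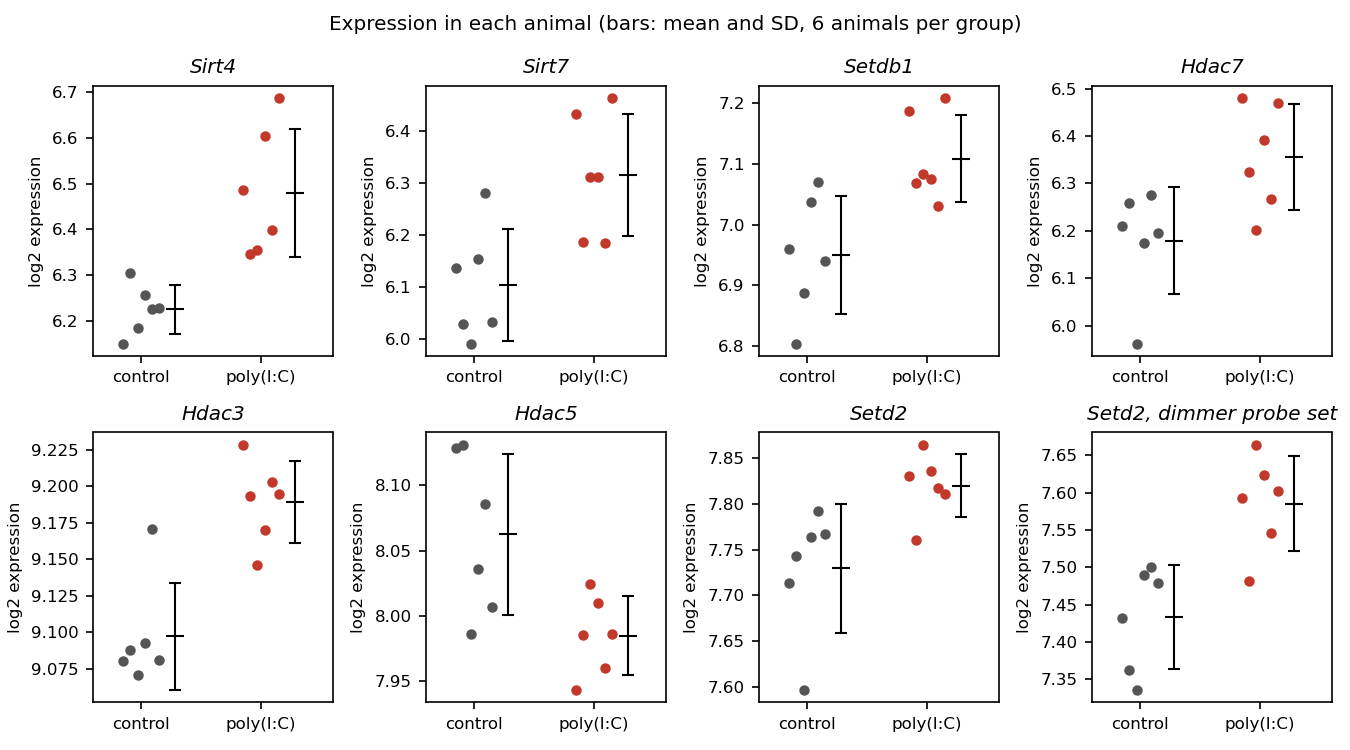
Log2 expression in each animal for 7 genes, with Setd2 shown on both of its probe sets; points are animals and bars are mean and SD of 6. Sirt4 is the one gene of the panel whose groups do not overlap, and Hdac5 the one with a lower mean after poly(I:C).

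Sirtuins consume NAD+ and are sorted to different compartments, and both of the family's largest differences lay among them. Sirt4 (probe set 10532999) ran from 6.15 through 6.23 to 6.30 in controls and from 6.35 through 6.44 to 6.69 after poly(I:C). Every poly(I:C) animal lay above every control, and in no other gene of the family were the groups apart. Groups that did not overlap, in either direction, were found in 2.37% of all probe sets and 2.43% of all genes. The means were 6.23 ± 0.05 and 6.48 ± 0.14 (SD, n = 6 each), the difference was 0.25 (95% interval 0.14 to 0.37) and the adjusted p was 0.022 in limma. The call was kept under quantile normalization (0.23, adjusted p = 0.032) and median centring (0.25, adjusted p = 0.017). It was lost by a narrow margin without controls 1 or 3 (adjusted p = 0.0501 and 0.0509) or without poly(I:C) animals 1 or 4 (0.0502 and 0.0501), and it was also lost over all table rows (0.053) and without moderation (0.082). Adjusted p-values ranged from 0.015 to 0.082 over its 23 alternatives.

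Sirt7 (probe set 10393866), a nuclear sirtuin of the nucleolus that deacetylates H3K18, ran from 5.99 through 6.09 to 6.28 in controls and from 6.19 through 6.31 to 6.46 after poly(I:C). Controls and poly(I:C) animals overlapped only through control 5, the highest control at 6.28. The difference of 0.21 ± 0.06 did not pass (adjusted p = 0.054), and it passed without control 5 (0.25, adjusted p = 0.025) and without poly(I:C) animals 2 (0.24, 0.037) or 5 (0.24, 0.038). Sirt7 passed in 8 of its 23 alternatives, among them array weights, both brightness filters, and trend and robust. Its adjusted p ranged from 0.025 to 0.13 over the alternatives.

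None of the other sirtuins reached an unadjusted p under 0.05 in limma. Sirt1, the nuclear enzyme most studied in ageing and memory, differed by 0.013 (95% interval -0.096 to 0.12) and Sirt6, a deacetylase of H3K9, by 0.025 (-0.057 to 0.11). Besides Sirt4, the mitochondrial sirtuins had lower means: Sirt3, the main mitochondrial deacetylase, differed by -0.060 (-0.14 to 0.022) and Sirt5, which removes succinyl and malonyl groups, by -0.075 (-0.16 to 0.011). Sirt2, a cytoplasmic tubulin deacetylase known for its abundance in oligodendrocytes, ran from 8.70 through 8.77 to 8.84 in controls and from 8.67 through 8.76 to 8.80 after poly(I:C), a difference of -0.035 (-0.11 to 0.038). Markers of oligodendrocytes and myelin were lower in all 13 measured members, 7 of them called, with a median of -0.33. Their average ran from 7.15 to 7.52 in controls and from 6.76 to 7.24 after poly(I:C), and its part in the Sirt2 value was not tested. In bulk tissue fewer cells of a type and less RNA per cell cannot be told apart.

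Subunits of the enzymes' complexes, mark readers and histone enzymes with other names, here together called partners, gave a like picture. They were 149 measured genes of 165 listed. Of these 5 were called, all higher (3.36%, against 2.83% of all probe sets). A higher mean was found in 105 (70.5%, against 52.0% of all probe sets), with a median difference of 0.036 against 0.0030. Most of the partners, 139, were among the probe sets brighter than the median one, of which 65.7% had a higher mean, with a median of 0.026. Readers of histone marks held a pair of the called partners, among 26 measured. Phf20l1, a reader of methyllysine, rose from 7.61 ± 0.07 to 7.88 ± 0.12 (SD, n = 6; 0.27 ± 0.05 SE, adjusted p = 0.012). Baz2b, a bromodomain protein, rose from 6.66 ± 0.03 to 6.82 ± 0.04 (0.16 ± 0.03, adjusted p = 0.012). Neither gene's groups overlapped, and both calls were kept when any 1 animal was left out, though Phf20l1 lost its call without moderation (adjusted p = 0.063). Next in this list came Brd9 (0.13, adjusted p = 0.066) and Baz1b (0.098, 0.088), which did not pass.

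Among 9 subunits of PRC2, the Polycomb complex built around EZH1 and EZH2, Mtf2, an accessory subunit that guides the complex to CpG-rich DNA, rose from 7.09 ± 0.05 to 7.23 ± 0.04 (SD, n = 6; adjusted p = 0.028) without overlap. Its relative Phf19 differed by -0.11 (adjusted p = 0.10), Jarid2 by 0.051 and the core subunit Eed by 0.062. Among 14 COMPASS subunits Hcfc2 rose from 6.92 ± 0.07 to 7.08 ± 0.05 (adjusted p = 0.035), again without overlap, and Ncoa6 (0.059), Pagr1a (0.092) and Rbbp5 (0.053) did not pass. Of 32 genes of HDAC corepressor complexes, Zmym2 rose from 8.46 ± 0.04 to 8.57 ± 0.04 (adjusted p = 0.048), without overlap, while Ing2 (0.091), Rcor1 (0.092) and Sap130 (0.077) did not pass. These 3 calls depended on single animals. Mtf2 was lost without any of controls 1, 2 or 3 or poly(I:C) 1, 3 or 4 (adjusted p up to 0.067), Hcfc2 without any of controls 2, 3, 5 or 6 or poly(I:C) 1, 3, 4 or 6 (up to 0.084), and Zmym2 was kept only in the fits without control 4 or poly(I:C) 2. All 3 were lost after quantile normalization (adjusted p = 0.072, 0.13 and 0.135 for Mtf2, Hcfc2 and Zmym2), and Hcfc2 and Zmym2 also after median centring (0.064 and 0.081).

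No gene was called among 38 partners of the acetyltransferases. Of these 9 were higher at an unadjusted p under 0.05 (limma), 23.7% against 11.7% of all probe sets. Of the probe sets brighter than the median one, fitted alone, 19.6% were higher at that p. Supt20, a SAGA subunit, differed by 0.19 (adjusted p = 0.058) and passed without control 5 (0.23, adjusted p = 0.019) or poly(I:C) 5 (0.21, adjusted p = 0.049). Epc1, a NuA4 subunit, differed by 0.14 (adjusted p = 0.057) and passed without control 5 (0.16, adjusted p = 0.027), and Ing5 (0.15) and Kansl2 (0.12) lay in the same range. Acetyltransferases with other names, 11 in all, had higher means in 10 and none called, with Atf2 at 0.10 (adjusted p = 0.067), Clock at 0.11, Ncoa3 at 0.089 and Crebbp, the coactivator mutated in Rubinstein-Taybi syndrome, at 0.086. Among 14 other methyltransferases none passed, with Nsd3 at 0.098, Dot1l, the H3K79 enzyme, at 0.14, Nsd2 at 0.058 and Prmt1, the main arginine methyltransferase, at -0.13 (adjusted p = 0.10). Among 7 other demethylases Jmjd1c differed by 0.13 (adjusted p = 0.081), Hspbap1 by 0.16, Riox1 by -0.044 and Phf2 by -0.043, none called.

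Some features of the whole series moved with the groups. Array medians lay between 5.77 and 5.83 (log2), and pairs of arrays correlated at 0.997 to 0.999 across probe sets, which are not independent replicates. Neuronal markers were bright in every animal, with averages from 10.29 to 10.35 in controls and from 10.35 to 10.41 after poly(I:C), and no member of the astrocyte, endothelial, interneuron, microglia or neuron lists was called. Transcripts known for detained introns, which are held in the nucleus incompletely spliced, had higher means in all 16 measured members, 6 called, and their average ran from 7.46 to 7.68 in controls and from 7.67 to 7.86 after poly(I:C). Control 5 was the highest control for this list too. Striatal markers were lower in all 8, 1 called, with averages from 6.73 to 7.53 in controls and from 6.70 to 6.91 after poly(I:C), and controls 5 and 6 had the highest, 7.53 and 7.34. Among 6 oligodendrocyte precursor markers 5 had a lower mean, with a median of -0.040, and the 1 called was the remaining one, higher. The part of these lists in the enzyme differences was not tested. Without controls 5 and 6, an alternative chosen after seeing the data, Sirt4 differed by 0.25 (adjusted p = 0.049), Sirt7 by 0.24 (adjusted p = 0.045), and these 2 of the 62 genes passed.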

How the data were processed

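Total RNA was measured on Affymetrix Mouse Gene 1.1 ST array strips, per the labels' protocols, which name both a 3' IVT and a whole-transcript kit. The authors deposited 1 value per probe set and array on a log2 scale, as its range shows. The submitters' processing notes list RMA, which corrects background, quantile-normalizes and summarises probes, and Partek 6.6, with no order. Which of these steps gave the deposited values is not stated, and array medians still spanned 5.77 to 5.83. No source used here gives an annotation or genome build, so no coordinates are printed. The number of arrays limits the precision.

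Of 35556 probe sets, 21218 carried 1 gene symbol in the platform annotation, which can be old, 1881 several and 12457 none. Of the single symbols 21185 were matched by gene identifier to RefSeq (GRCm38.p6), for names only. The 23099 probe sets with a gene entered 1 moderated fit in limma 3.58.1 under R 4.3.3 (lmFit, eBayes). It compared poly(I:C) with control, two-sided and with no covariate, and p-values were adjusted over all of these probe sets by Benjamini-Hochberg. A gene was called at an adjusted p under 0.05, and was read from its single-gene probe set with the highest mean over the 12 samples. The fit was tested on simulated data. Values given as "from A through B to C" are the lowest, median and highest animal.

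Members, lists and tests were chosen with earlier results of these data known. Animal values are given for called members and the member with the lowest p in each enzyme class, the other members by their difference, and up to 4 genes with the lowest p for each partner list. Hdac5 and Hdac9 were added after their values were seen. The class of Ezhip was also added after the annotation was read. The rule was read as asking for a digit after Kat alone, and a digit after every prefix would leave out Setdb1, Setdb2 and Ezhip. Alternatives were quantile normalization, centring on array medians, filters on mean brightness (25th or 50th percentile), all table rows, weights per array, trend and robust, no moderation, the replicate number as a block, the mean of a gene's probe sets, the digit reading, each sample left out, and controls 5 and 6 left out together, the last chosen after seeing the data. Plots were drawn with matplotlib 3.10.9.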

Additional observations from a re-analysis of the deposited data

Results flagged for a closer look

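In 7 of 124 groups of 6 animals (62 genes, 2 groups each), 1 animal stood apart from the rest by a gap that was large for the group's range. Chance flags about 1 in 20 such groups, so 7 of 124 is near that rate. The poly(I:C) animals concerned were animal 5 for Kmt5a (8.071, the others 7.78 to 7.88), animal 4 for Kdm4d (5.612, the others 5.32 to 5.43) and animal 3 for Kdm1b (5.797, the others 5.89 to 5.92). Among controls, animal 3 was low for Kdm2a (7.693, the others 7.89 to 8.01) and for Hdac7 (5.962, the others 6.17 to 6.28), animal 5 was high for Hdac3 (9.171, the others 9.07 to 9.09), and animal 1 was high for Sirt5 (6.106, the others 5.98 to 6.02).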

How the results depend on the processing

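The fit as deposited called 653 probe sets, 1 of the 62 enzyme genes and 5 of 149 partners. With all rows of the table these were 414, 0 (16 enzyme genes at an unadjusted p under 0.05) and 3, and without moderation in limma 122, 0 (14 at an unadjusted p under 0.05) and 1. Enzyme calls were 2 with array weights, with the 25th percentile filter, with trend and robust and without controls 5 and 6, and 4 with the 50th percentile filter, all higher. Partner calls were 12 of 139 with the 50th percentile filter, 3 after median centring, 2 after quantile normalization and 8 without controls 5 and 6. The called share of all probe sets fitted was 3.4% with array weights and 3.53% with trend and robust. It was 3.98% with the 25th percentile filter and 7.52% with the 50th. After median centring it was 2.74%, after quantile normalization 2.27%, and without controls 5 and 6 it was 2.71%. The split of all calls was 467 higher and 186 lower as deposited, 239 and 285 after quantile normalization and 387 and 247 after median centring. Animals of the same number did not deviate together (correlations from -0.092 to 0.11 over 6 pairs, 1 of 6 best matched to its own number), and the replicate block left 536 probe sets, 1 enzyme gene (Sirt4) and 2 partners. Leaving out 1 animal gave 230 to 818 probe sets, 0 to 3 enzyme genes and 2 to 9 partners. The called partners were 8 higher and 1 lower without poly(I:C) 2, and 5 higher and 1 lower without poly(I:C) 5. In the other fits with 1 animal left out all called partners were higher. Without controls 1 or 3, or poly(I:C) animals 1 or 4, no enzyme gene passed, with 10 to 13 at an unadjusted p under 0.05. The median of the enzyme genes kept its sign in every alternative and moved beyond its spread only after quantile normalization, to 0.0092.

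Of the 62 genes 45 kept their sign in every alternative, and 4 were called in some. The sign turned, always without a call and mostly near 0, after quantile normalization for Ehmt2 (-5.3e-05), Ezh2 (-0.015), Hdac1 (-0.022), Hdac6 (-0.010), Kat2a (-0.0018), Kat7 (-0.0024), Kdm1a (-0.029), Kdm4a (-0.024), Setd3 (-0.030), Sirt1 (-0.0069) and Sirt6 (-0.0083), after median centring for Kdm1a (-0.0039), Setd3 (-0.0047) and Setdb2 (-0.0048), with array weights for Kdm4a (-0.0013), over all probe sets of the gene for Kdm2a (-0.0031) and Setd3 (-0.015), and without controls 5 and 6 for Hdac6 (-0.028) and Setdb2 (-0.00060). Leaving out 1 animal spanned 0 for Ezh2 (-0.025 to 0.047), Hdac6 (-0.0045 to 0.046), Kdm1a (-0.010 to 0.011), Kdm4a (-0.014 to 0.026), Kdm4b (-0.028 to 0.0061), Kdm4d (-0.056 to 0.020), Kdm8 (-0.029 to 0.021), Kmt5c (-0.012 to 0.042), Setd3 (-0.0050 to 0.010), Setdb2 (-0.029 to 0.040), Sirt1 (-0.019 to 0.039) and Sirt6 (-0.0018 to 0.048). Apart from the fits with fewer samples or other numbers of probe sets, the cause of these shifts was not tested. Of the 9 genes with another probe set, Kmt2d, Setd3, Setd6, Kdm2a and Kdm6b had one of opposite direction and Setd2 one with another call, which the replicate block ended (adjusted p = 0.065). The other probe sets of Setd6, Kdm2a and Kdm6b lay below the 25th percentile of brightness. Ezhip was among the dimmest probe sets.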
